A study of Homo sapiens with 12 samples.

Results

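The transcripts of 10 genes of the NF-kappaB system were followed in A673 cells, a cell line from an Ewing sarcoma, while transcription was blocked with actinomycin D. The genes were taken by symbol from the deposited table of raw counts. They comprise 5 inhibitors (NFKBIA, NFKBIB, NFKBIE, TNFAIP3 and TNIP1) and 5 subunits of the factor (REL, RELA, RELB, NFKB1 and NFKB2). All 10 were among the 26334 symbols of the table, and all 10 were also among the 12032 genes that averaged 10 or more counts per library, which were tested. The samples carry the name shA673-1c, and the labels do not say what the prefix sh stands for. In every group the sample titles and count columns also carry the label CTL. The medium held blasticidin and zeocin in every group, and all groups received 5 µM actinomycin D. They differ only in the length of exposure, which was 0, 1, 2 or 4 h, with 3 biological replicates each and 12 poly(A) libraries in all.

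NF-kappaB is a family of dimeric transcription factors. In resting cells the dimers are held in the cytoplasm by IkB proteins. Signals from receptors such as those for TNF or interleukin-1 activate the IKK kinase complex, which marks the IkB proteins for destruction and frees the dimers to enter the nucleus. Several of the genes that are then switched on encode inhibitors of the pathway itself, a feedback loop for which NFKBIA and TNFAIP3 are the textbook cases. Because actinomycin D stops new synthesis, the later loss of a transcript reflects how long it lasts.

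Library totals lay between 9147018 and 11194705 counts. Levels are given as CPM, counts scaled to a common library size with edgeR's TMM factors, and slopes as log2 change per hour from a straight line in time fitted with edgeR's quasi-likelihood method, with p-values adjusted over all 12032 tested genes by the Benjamini-Hochberg method. The scaling is relative: a transcript with a slope of 0 kept pace with the bulk of poly(A) RNA, and one with a positive slope either outlasted the bulk or was induced. With the libraries scaled to their GAPDH and ACTB counts instead, the median slope of all genes moved by -0.14, from 0.0093 to -0.13. Half-lives below come from the TMM-scaled slopes and shift with the scaling. Ewing sarcoma markers were present in part. NR0B1 had 69 to 451 counts per library, NKX2-2 had 7 to 87, STEAP1, PRKCB and CCND1 had at least 499, and CD99 was listed at 0 throughout, as were all 17 protein-coding pseudoautosomal genes of the table. None of the 12 markers of leukocytes, endothelium and epithelium reached the count limit, the highest being CD14 with 0 to 9 counts.

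Before transcription was blocked, RELA, the subunit of the classical dimer that activates transcription, was the most abundant member. Per kilobase of the reference transcript it had 30.8 ± 0.99 CPM (SD, n = 3) at 0 h. NFKBIB followed with 24.4 ± 2.0 and NFKBIA with 22.1 ± 0.98 CPM per kilobase, and the libraries of these inhibitors overlapped. TNIP1 had 17.6 ± 0.85, NFKB1 10.4 ± 1.5, NFKB2 4.24 ± 0.37 and NFKBIE 2.26 ± 0.29 CPM per kilobase, each clear of its neighbours in every library. REL (1.31 ± 0.23), RELB (1.19 ± 0.57) and TNFAIP3 (0.956 ± 0.095 CPM per kilobase) were the least abundant, and neighbours among these last members were not separated. The order depends on the transcript taken as reference, since the REL transcript of 11108 bases is far longer than the others (1192 to 4665 bases).

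Over 4 h, 6 of the 10 members fell and 1 rose relative to the TMM scaling (adjusted p below 0.05, edgeR), and none rose with scaling to GAPDH and ACTB. Of all tested genes, 32.1% fell and 30.7% rose, so the count of risers among members was below and the count of fallers above these shares. The fallers were NFKBIA, TNFAIP3 and NFKBIE among the inhibitors and REL, NFKB1 and RELA among the subunits, and NFKBIB rose. In these bulk libraries, loss from fewer cells and a smaller loss in all cells cannot be told apart. For the same 6 genes every 4 h library was below every 0 h library in CPM, and for NFKBIB every one was above (33% and 30.4% of all tested genes).

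**Figure D1:**
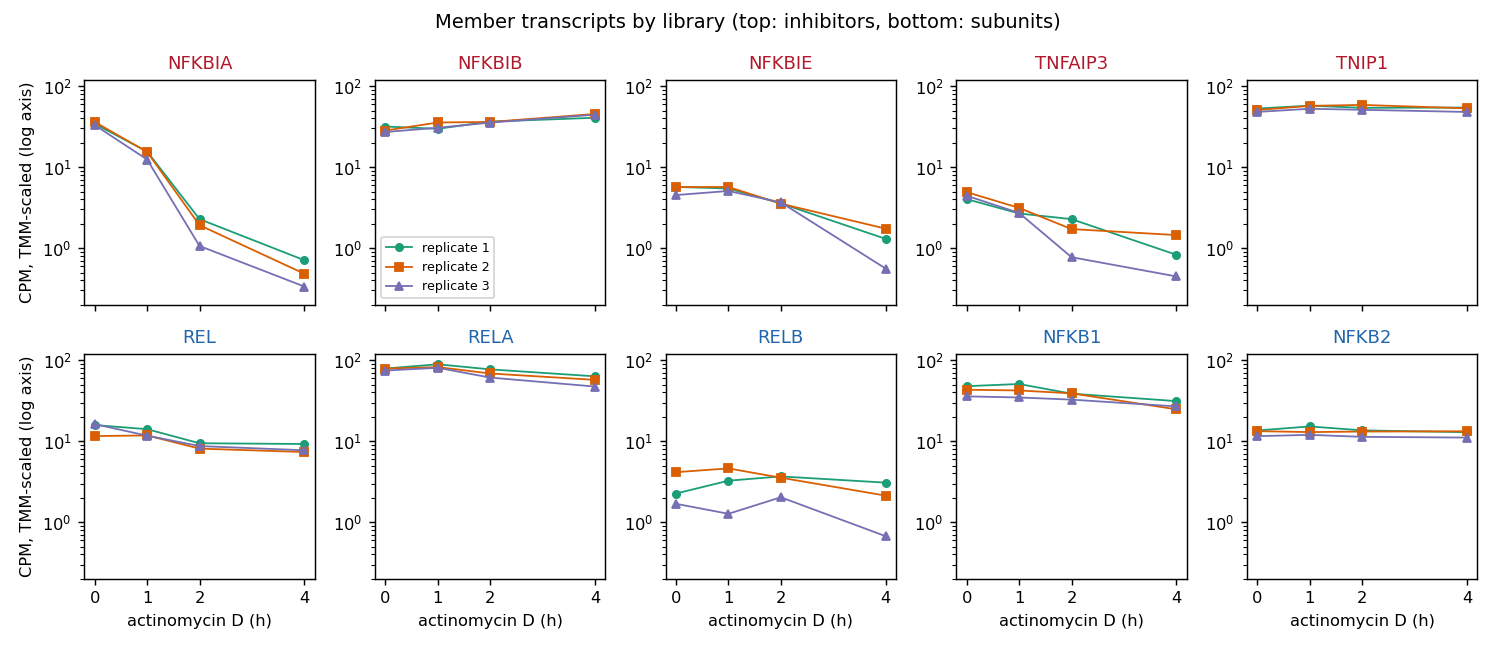
Level of each member in every library, in TMM-scaled CPM on a log axis, against hours of actinomycin D, with inhibitors in the upper row and subunits in the lower row and a line for each replicate number. NFKBIA drops from 33.1 to 36.1 CPM at 0 h to 0.336 to 0.710 CPM at 4 h, while TNIP1 and NFKB2 stay nearly level with this scaling (both fell with scaling to GAPDH and ACTB).

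NFKBIA encodes IkB-alpha, the inhibitor that NF-kappaB itself induces and that ends a response by taking the dimers out of the nucleus. The gene lies on the minus strand of chromosome 14, from 35401079 to 35404749 in GENCODE version 44 on GRCh38. The libraries held 349, 375 and 373 counts at 0 h, 163, 157 and 137 at 1 h, 23, 19 and 11 at 2 h, and 6, 5 and 3 at 4 h. No library of a later time reached the lowest of an earlier time. The level went from 34.5 ± 1.5 to 0.510 ± 0.19 CPM (SD, n = 3), which left 1.47% ± 0.54 of the 0 h level. The slope was -1.75 log2 per hour (standard error 0.11, adjusted p = 2.97e-09, edgeR), and replicates 1, 2 and 3 fitted alone gave -1.60, -1.75 and -1.96. For the straight line this corresponds to a half-life of 0.572 h, but the rate was uneven. The log2 change per hour was -1.25 from 0 to 1 h, -3.04 from 1 to 2 h and -0.88 from 2 to 4 h. Among the 12032 tested genes it was the second lowest slope, after that of SNORD44, which had 0 to 47 counts per library and was named after its value was seen.

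TNFAIP3 encodes A20, an enzyme that edits ubiquitin chains on upstream signalling proteins and thereby shuts down IKK activation. It lies on chromosome 6 from 137867214 to 137883314, plus strand. Counts were low, at 41, 51 and 50 in the libraries of 0 h, 28, 32 and 30 at 1 h, 23, 17 and 8 at 2 h, and 7, 15 and 4 at 4 h. All 4 h libraries were below all 1 h libraries, but those of 2 and 4 h overlapped. TNFAIP3 fell by 0.59 log2 per hour (standard error 0.085, adjusted p = 1.45e-05, edgeR), which is a half-life of 1.68 h, and 20.1% ± 9.7 of the 0 h level was left. Replicate 3 alone had a steeper slope, -0.94, than replicates 1 (-0.53) and 2 (-0.47). An exon of the lncRNA WAKMAR2 overlaps TNFAIP3 on the opposite strand, and the sources used here do not say if reads were counted by strand.

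NFKBIE encodes IkB-epsilon, which acts like IkB-alpha and is likewise known as a feedback inhibitor. It lies on chromosome 6 from 44258166 to 44265788, minus strand. The libraries held 58, 59 and 51 counts at 0 h, 57, 58 and 56 at 1 h, 36, 35 and 38 at 2 h, and 11, 18 and 5 at 4 h. The 0 and 1 h libraries were alike, those of 2 h lay below both, and those of 4 h were lower again. The slope was -0.51 (standard error 0.077, adjusted p = 2.41e-05, edgeR), and 21.9% ± 9.2 was left at 4 h. The straight line gives a half-life of 1.97 h, although the first hour was flat.

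With TMM scaling the remaining inhibitors did not fall, whereas TNIP1 did when GAPDH and ACTB set the scale. NFKBIB encodes IkB-beta, an IkB protein that is not known for strong feedback induction, and lies on chromosome 19 from 38899700 to 38908893, plus strand. It had 323, 294 and 306 counts at 0 h and 344, 469 and 397 at 4 h. In CPM, which allows for the library totals, every 4 h library (40.7 to 45.3) was above every 0 h library (27.1 to 31.7). The 4 h level was 151% ± 19 of the 0 h level, as a mean over same-numbered libraries. NFKBIB rose relative to the scaling by 0.15 log2 per hour (standard error 0.020, adjusted p = 9.9e-06, edgeR), although with scaling to GAPDH and ACTB the slope was 0.010 (adjusted p = 0.753, edgeR). GAPDH itself had a slope of 0.15 and ACTB one of 0.12. SIRT2, whose exons overlap NFKBIB on the opposite strand, had a slope of 0.16 (adjusted p = 1.57e-06, edgeR) at 344 to 518 counts, and the part of such overlapping reads in the NFKBIB counts was not tested.

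TNIP1 encodes ABIN-1, a ubiquitin-binding partner of A20, and lies on chromosome 5 from 151029945 to 151093577, minus strand. It was close to level at every time, with 50.6 ± 2.4 CPM at 0 h, 55.7 ± 2.7 at 1 h, 54.6 ± 3.8 at 2 h and 51.9 ± 3.4 at 4 h (SD, n = 3). The libraries of 0 and 4 h overlapped. Its slope was 0.00055 (standard error 0.020, adjusted p = 0.983, edgeR), which did not pass the threshold, though the slope was -0.14 (adjusted p = 2.62e-05, edgeR) when GAPDH and ACTB set the scale.

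The subunits moved within a narrower range. REL encodes c-Rel, a subunit best known from lymphocytes, and lies on chromosome 2 from 60881491 to 60931612, plus strand. It had 161, 120 and 183 counts at 0 h, 147, 120 and 129 at 1 h, 95, 80 and 90 at 2 h, and 78, 76 and 69 at 4 h. The 0 and 1 h libraries overlapped, and those of 2 and 4 h lay below them. At -0.23 log2 per hour (standard error 0.042, adjusted p = 0.000189, edgeR) it was the fastest falling subunit, with a half-life of 4.44 h and 56.5% ± 8.2 left at 4 h. With scaling to GAPDH and ACTB the slope was -0.36, which gives a shorter half-life. An exon of an unnamed lncRNA overlaps REL on the same strand.

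NFKB1 encodes p105, the precursor of the p50 subunit, whose unprocessed form also binds dimers in the manner of an IkB protein. It lies on chromosome 4 from 102501330 to 102617302, plus strand. It had 486, 448 and 403 counts at 0 h and 264, 256 and 240 at 4 h. The slope was -0.16 (standard error 0.035, adjusted p = 0.000744, edgeR), giving a half-life of 6.12 h. With scaling to GAPDH and ACTB the slope was -0.30, which gives a shorter half-life. At 1 h the mean was 42.6 ± 8.1 CPM against 42.2 ± 6.0 at 0 h, and at 4 h it was 27.6 ± 3.3 CPM, below all earlier libraries.

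RELA lies on chromosome 11 from 65653599 to 65663090, minus strand, and overlaps exons of the lncRNA RELA-DT on the opposite strand. It had 803, 818 and 840 counts at 0 h, 930, 837 and 888 at 1 h, 776, 677 and 631 at 2 h, and 534, 591 and 422 at 4 h. The slope was -0.14 (standard error 0.028, adjusted p = 0.000543, edgeR), giving a half-life of 7.35 h, with 72% ± 8.4 left at 4 h. Replicates 1, 2 and 3 alone gave -0.098, -0.13 and -0.19. With scaling to GAPDH and ACTB the slope was -0.28, which gives a shorter half-life.

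The subunits of the noncanonical pathway were not past the threshold. NFKB2 encodes p100, the precursor of p52, and lies on chromosome 10 from 102394110 to 102402524, plus strand. It had 12.8 ± 1.1 CPM at 0 h and 12.4 ± 1.2 at 4 h (SD, n = 3), and its slope was -0.017 (standard error 0.031, adjusted p = 0.663, edgeR). With scaling to GAPDH and ACTB the slope was -0.15 (adjusted p = 0.000192, edgeR). RELB, the usual partner of p52, lies on chromosome 19 from 45001461 to 45038192, plus strand. It had only 6 to 47 counts per library, and its slope of -0.12 had a standard error of 0.12 (adjusted p = 0.415, edgeR). Replicate 1 alone gave 0.085 and replicates 2 and 3 gave -0.26 and -0.23, so no direction could be read at this depth.

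Inhibitors and subunits were then set against each other. The median slope was -0.51 for the 5 inhibitors and -0.14 for the 5 subunits, against 0.0093 over all tested genes. The difference of -0.37 log2 per hour was -0.42, -0.26 and -0.41 in replicates 1, 2 and 3 fitted alone (SD 0.091). It was -0.41 with means in place of medians, and -0.37 under each of the 4 scalings, since a factor of a library shifts all slopes alike. It is a description without a test. The medians hide how far apart the inhibitors lay, since NFKBIA, TNFAIP3 and NFKBIE fell faster than every subunit while TNIP1 and NFKBIB had slopes above those of all subunits. Among genes averaging 100 or more counts, which drops NFKBIE, TNFAIP3 and RELB, the difference was 0.15, in the opposite direction.

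Counts of each inhibitor relative to those of RELA in the same library are free of any scaling between libraries. The ratio of NFKBIA to RELA was 0.446 ± 0.012 at 0 h, 0.172 ± 0.017 at 1 h, 0.0250 ± 0.0066 at 2 h and 0.00894 ± 0.0021 at 4 h (SD, n = 3). The ratio fell in each step in all replicates, and no libraries of different times overlapped. For NFKBIB it was 0.375 ± 0.023 at 0 h and 0.793 ± 0.15 at 4 h, and for TNIP1 it was 0.654 ± 0.015 and 0.936 ± 0.078. NFKBIE went from 0.0684 ± 0.0066 to 0.0210 ± 0.0093 and TNFAIP3 from 0.0576 ± 0.0059 to 0.0160 ± 0.0083. Thus, NFKBIA and NFKBIB had like ratios to RELA before the block and lay far apart after 4 h. These are ratios of read counts, not of molecules, because the transcripts differ in length. RELA itself fell, with 72% ± 8.4 left at 4 h in CPM, and this enters every ratio. TNIP1, whose ratio rose, had 50.6 ± 2.4 CPM at 0 h and 51.9 ± 3.4 at 4 h.

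**Figure D2:**
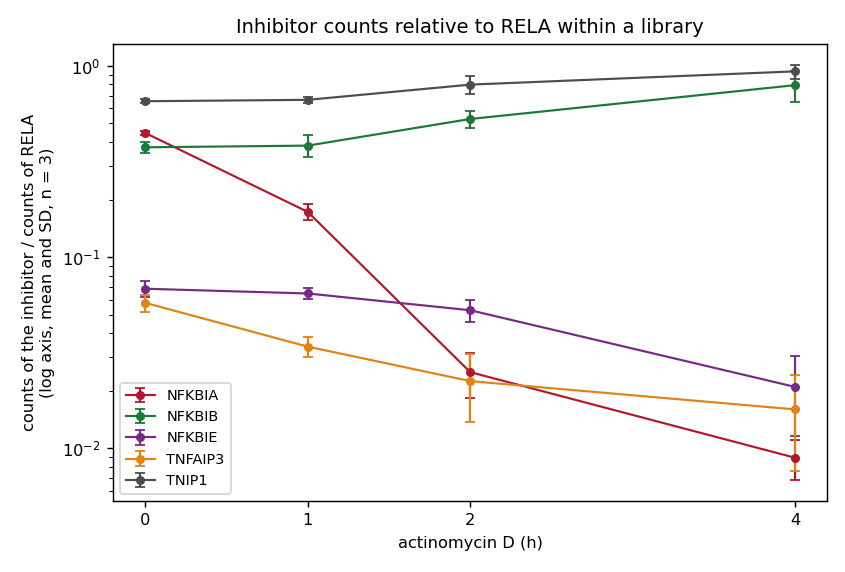
Counts of each inhibitor divided by the counts of RELA in the same library, on a log axis, as mean and SD of 3 libraries against hours of actinomycin D. The curves of NFKBIA and NFKBIB start close together at 0.446 and 0.375 and end at 0.00894 and 0.793.

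The calls differed from step to step. At 1 h, NFKBIA was the only member lower than at 0 h (1 of 10, against 2.24% of all tested genes), with a log2 difference of -1.25 (standard error 0.14, adjusted p = 0.000356, edgeR). Without replicate 2 its value was -1.27, with an adjusted p of 0.0953 (edgeR). With the replicate number as a block, TNFAIP3 (log2 difference -0.65, adjusted p = 0.0363, edgeR) was lower too, 2 members against 10.5% of all genes. No member was higher at 1 h, either without the block (0.349% of all genes) or with it (6.18%).

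At 2 h against 0 h, NFKBIA, TNFAIP3 and REL were lower (3 of 10, against 19.4% of all genes) and NFKBIB was higher (1 of 10, against 10.8%). With the block NFKBIE, RELA and NFKB1 were lower as well, 6 members against 26.5% of all genes, and 1 was higher (23.9%).

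On the log2 scale, the steepest change of NFKBIA came between 1 and 2 h. Its log2 difference in that hour was -3.04 (standard error 0.20, adjusted p = 9.61e-07, edgeR), and it was -2.77, -3.00 and -3.55 in replicates 1, 2 and 3. Each replicate thus had a larger log2 drop in the second hour than in the first, where the values were -1.14, -1.23 and -1.41. In CPM the mean went from 34.5 at 0 h to 14.5 at 1 h and 1.76 at 2 h, so the larger loss came first. From 2 to 4 h the difference was -1.77 (standard error 0.37, adjusted p = 0.00275, edgeR), or -0.88 per hour, at 3 to 23 counts per library. REL was the other member that fell between 1 and 2 h (log2 difference -0.52, adjusted p = 0.0334, edgeR), which made 2 of 10 against 12.5% of all genes. With the block 6 members fell in this step, against 20.7% of all genes, namely NFKBIA, REL, RELA, NFKBIE, TNFAIP3 and NFKB1.

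Further members were called in the last step, which spans 2 h. Between 2 and 4 h NFKBIE, RELA and NFKB1 fell along with NFKBIA (4 of 10, against 18.3% of all genes), and NFKBIB rose (1 of 10, against 12%). The log2 change per hour of RELA was -0.29 from 1 to 2 h and -0.15 from 2 to 4 h. For NFKB1 it was -0.21 in both steps. With the block RELB also fell from 2 to 4 h (log2 difference -0.69, adjusted p = 0.0351, edgeR), 5 members against 25.3% of all genes. NFKBIE had a log2 difference of -1.55 in this step (standard error 0.28, adjusted p = 0.000957, edgeR), or -0.77 per hour, after 0.030 in the first hour (standard error 0.21). Its rate in the first hour minus its mean rate from 1 to 4 h was 0.74 log2 per hour (standard error 0.25, adjusted p = 0.271, edgeR). For RELA the same quantity was 0.31 (standard error 0.12, adjusted p = 0.329, edgeR). For NFKBIA it was 0.35 (standard error 0.20, adjusted p = 0.565, edgeR). No member was past the threshold without the block, where 0.133% of all genes were in this direction. With the replicate block NFKBIE and RELA were, at 0.74 (adjusted p = 0.0177, edgeR) and 0.31 (adjusted p = 0.00202, edgeR), against 7.47% of all genes. NFKBIA was not (adjusted p = 0.160, edgeR). No member was past the threshold in the opposite direction, with or without the block (5.39% and 0.0416% of all genes). At 4 h against 0 h, the called members were those of the slopes, 6 lower and 1 higher (31.6% and 28.7% of all genes, or 36% and 36.8% with the block).

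**Figure D3:**
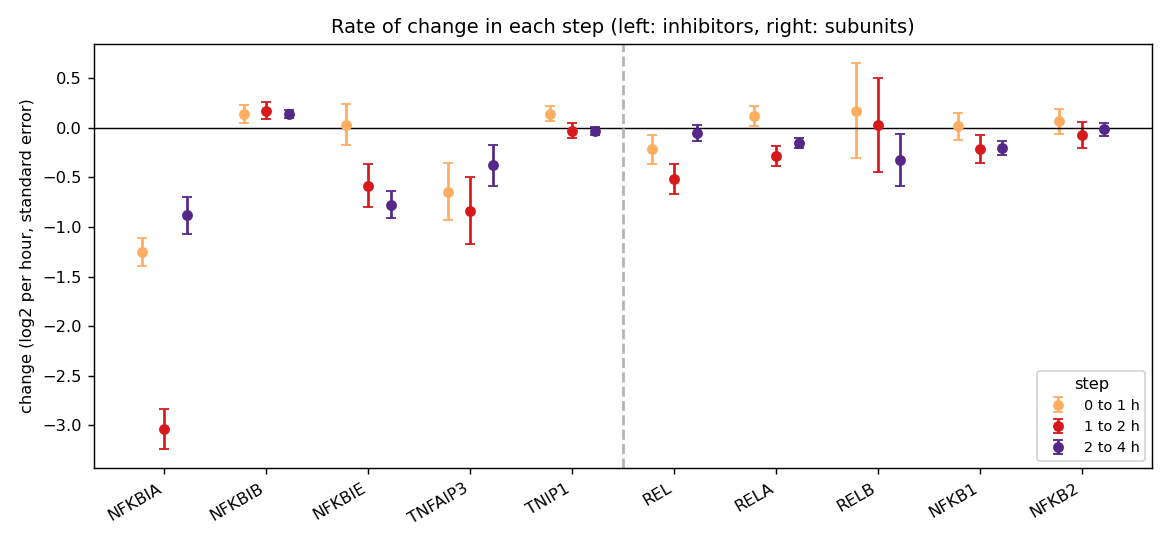
Change of each member in log2 per hour, with its standard error, from 0 to 1 h, 1 to 2 h and 2 to 4 h, with inhibitors left of the dashed line. NFKBIA falls by 3.04 log2 units from 1 to 2 h, more than in either other step, and NFKBIE is near 0 in the first hour only.

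AU-rich elements in the 3′ untranslated region (3′ UTR), which contain the pentamer ATTTA and often the longer TATTTAT, are known to mark short-lived transcripts of the inflammatory response. In the reference transcripts, NFKBIA has 3 ATTTA and 2 TATTTAT in a 3′ UTR of 500 bases, or 6 ATTTA per kilobase, more than 94.9% of the tested genes with a 3′ UTR. TNFAIP3 has 5 and 2 in 1993 bases, and REL has 25 and 4 in 9077 bases. NFKB1 has 3 ATTTA in 708 bases and NFKB2 has 1 in 148 bases, without a TATTTAT, and at 6.76 ATTTA per kilobase NFKB2, which did not pass the threshold with TMM scaling, had the highest density of the members. NFKBIB, NFKBIE, TNIP1, RELA and RELB have none. Over 10817 tested genes with a 3′ UTR (89.9% of those tested) the median was 2 ATTTA, or 1.78 per kilobase, and 37.6% held a TATTTAT. The windows of 30 bases below are for the 3 members with a TATTTAT. Each shows the place with most ATTTA and then most TATTTAT, 5′ to 3′ along the transcript, with ATTTA in capitals (GRCh38: NFKBIA chr14:35401699-35401728, minus strand, TNFAIP3 chr6:137882297-137882326, plus strand, REL chr2:60924241-60924270, plus strand).
NFKBIA: gaccacattttatATTTAttgtgcttcgag
TNFAIP3: tgtaattcactttATTTAttttattacaaa
REL: ttactaagtATTTAttcATTTActgtttgt

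Many members are known as NF-kappaB targets, and their promoters were searched on both strands for the letters of the factor's kappaB motif, GGGAA followed by any 3 bases and CC. RefSeq promoters (GRCh38.p14, 250 bases before to 50 after a transcription start that RefSeq lists) were at hand for 8 members, as 14 promoters. Several members have more than 1 such start. The transcription starts of the matched promoters of TNIP1, NFKBIB, NFKB2, REL and NFKB1 lie inside the GENCODE gene bounds given above. Of the 14 promoters, 7, of 6 members, held a match, against 6.9% of 35116 promoters. TNFAIP3 and RELA had none in these windows, and NFKBIE and RELB were not in the promoter table. The matched members include those with the lowest (NFKBIA) and the highest slope (NFKBIB). For each matched member 1 window of 30 bases is shown, 5′ to 3′ on the gene's strand, with capitals covering matches on either strand (NFKBIA chr14:35404811-35404840, NFKBIB chr19:38899931-38899960, REL chr2:60881517-60881546, NFKB1 chr4:102501300-102501329, NFKB2 chr10:102394461-102394490, TNIP1 chr5:151081056-151081085). Further NFKB2 matches, beginning 77 bases before the same start and 176 bases before another start, are not shown. A match is a run of letters and not a measured binding site.
NFKBIA: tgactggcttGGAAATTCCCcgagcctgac
NFKBIB: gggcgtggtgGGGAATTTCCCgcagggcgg
REL: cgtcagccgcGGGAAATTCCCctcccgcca
NFKB1: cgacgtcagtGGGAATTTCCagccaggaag
NFKB2: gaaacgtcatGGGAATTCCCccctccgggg
TNIP1: cagtctccggGGACTTTCCCaggggtgggg

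The course of NFKBIA was compared with those of all 9978 genes averaging 50 or more counts, by the Euclidean distance over the 12 libraries of log2 (CPM + 1) relative to the mean at 0 h. The 5 nearest were HES1 (distance 1.01), DUSP6 (1.05), CITED2 (1.16), MYC (1.70) and TRIB1 (1.86). Their slopes were -1.59, -1.19, -1.26, -1.12 and -1.31 log2 per hour, against -1.75 for NFKBIA. The added 1 shrinks falls at low levels, and with it the limma slope of NFKBIA was -1.18. Genes with slower falls at higher levels could therefore lie near. HES1 went from 45.7 to 1.04 CPM between 0 and 4 h, and CITED2, a transcriptional coregulator, from 194 to 8.21 CPM.

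The rest of the pathway was read from 6 lists with 88 genes, of which 57 were tested. Of these 32 fell and 8 rose, with a median slope of -0.087, where 32.1% of all tested genes fell and 30.7% rose with a median of 0.0093. These shares also stand behind the counts of each list. With the replicate block 33 fell and 11 rose (34.8% and 36.2% of all genes). The 32 fell under all 4 scalings, whereas only IRAK1 of the 8 risers still rose with scaling to GAPDH and ACTB, and SOD2 and RNF11 fell there, as did 7729 of all 12032 tested genes. With library totals IRAK1, SHARPIN, RBCK1 and SKP1 still rose.

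Among atypical IkB proteins and relatives of TNIP1, 2 of 4 tested genes fell and 0 rose, with a median slope of -0.12. BCL3, a nuclear IkB protein that binds p50 and p52 dimers, fell with a slope of -0.53 (adjusted p = 1.71e-05, edgeR), from 5.08 ± 0.21 to 1.41 ± 0.23 CPM. TNIP2 fell slowly, with a slope of -0.071. NFKBIZ, the nuclear IkB-zeta, did not pass (slope 0.011, adjusted p = 0.895, edgeR).

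In the IKK complex and the kinases above it, 7 of 15 fell and 3 rose, with a median of -0.037. The catalytic subunits CHUK (slope 0.028) and IKBKB (0.038) were not past the threshold, but both fell with scaling to GAPDH and ACTB, at -0.11 and -0.10. The steepest falls were those of MAP3K8 (slope -0.42, at 8 to 47 counts), TBK1 (-0.33) and RIPK1 (-0.32), the kinase scaffold at the TNF receptor. IRAK1, a kinase of the interleukin-1 branch, had the highest slope, 0.18, followed by IKBKE with 0.12, which was not past the threshold with library totals (0.077) or with GAPDH and ACTB (-0.023).

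Of 13 tested receptors and adaptors, 7 fell and 0 rose, with a median of -0.087. With the replicate block TNFRSF12A (slope -0.10) also fell, and CD40 (0.12) and IL1RAP (0.026) rose, 8 and 2 in all. TRAF6, the ubiquitin ligase of the interleukin-1 branch, went from 45.2 ± 2.7 to 13.7 ± 0.80 CPM (slope -0.47, adjusted p = 7.09e-07, edgeR), and TNFRSF1A, the main TNF receptor, from 106 ± 4.7 to 36.6 ± 6.6 CPM (slope -0.39). TLR4 also fell (slope -0.27), at 8 to 40 counts. Of 10 ligands only IL1A was tested, with 4 to 18 counts and a slope of -0.37 (adjusted p = 0.00196, edgeR). It averaged 10.5 counts, just above the limit of 10, with 1.41 ± 0.23 CPM at 0 h and 0.505 ± 0.047 at 4 h. It passed the limit through its higher early libraries, so its call, among the fallers counted above, is no result about ligands. TNF itself had 0 to 4 counts in a library, and LTB and TNFSF11 had none.

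Of 15 tested ubiquitin ligases and deubiquitinases, 8 fell and 4 rose, with a median of -0.065. OTUD7B, a deubiquitinase related to A20, fell with a slope of -0.42, BTRC, the adaptor that recognises phosphorylated IkB proteins, with -0.20, and OTULIN with -0.20. SHARPIN (0.16) and RBCK1 (0.14), parts of the linear ubiquitin ligase, rose, though with scaling to GAPDH and ACTB they had 0.024 and 0.00062 and were not past the threshold. Their catalytic partner RNF31 had -0.021 (adjusted p = 0.465, edgeR), but fell with library totals (-0.060) and with GAPDH and ACTB (-0.16).

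Of 23 known NF-kappaB targets outside the pathway, 9 reached the count limit, as did 12032 of all 26334 symbols, and 4 had no count in any library. Of the 9 tested, 7 fell and 1 rose, with a median of -0.16. IER3 fell with a slope of -1.17, from 31.2 ± 3.1 to 1.89 ± 0.42 CPM, GADD45B with -1.08 and the transcription factor gene IRF1 with -0.68. SOD2, a mitochondrial antioxidant enzyme, rose with a slope of 0.078, but it was not past the threshold with library totals (0.039) and fell with GAPDH and ACTB (-0.060). With the replicate block PLAU (slope 0.053) rose as well, which made 2. CXCL8 had 2 to 12 counts per library and IL6 at most 2.

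**Figure D4:**
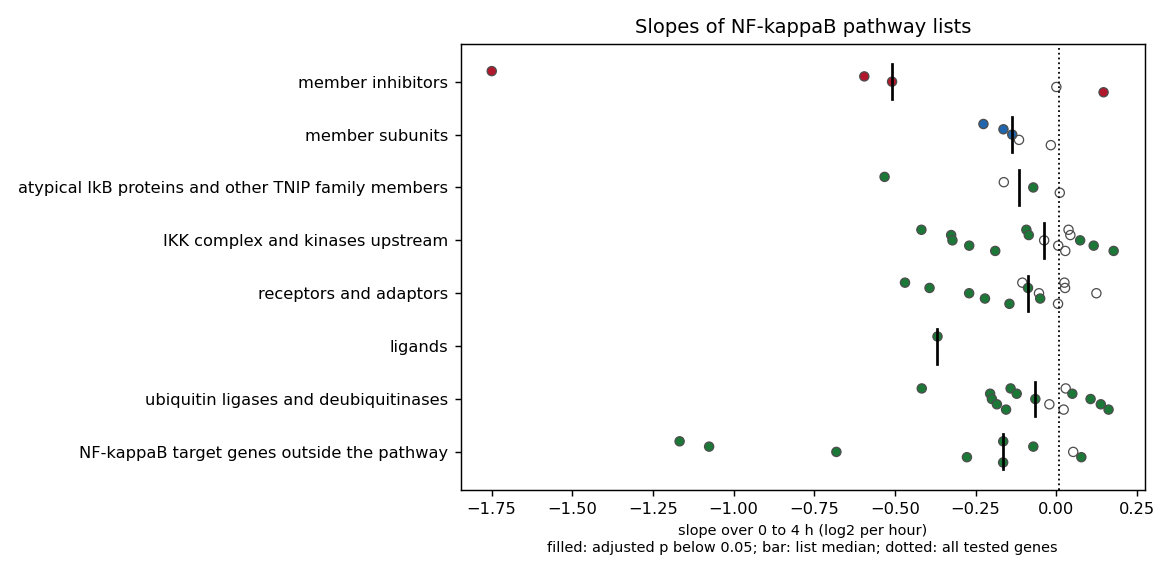
Slopes of all tested genes of the pathway lists in log2 per hour, filled where past the threshold, with the median of each list as a bar and that of all tested genes as a dotted line. NFKBIA lies left of every other pathway gene at -1.75, followed by the targets IER3 at -1.17 and GADD45B at -1.08.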

How the data were processed

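For each gene symbol the deposited table holds whole-number read counts, not normalized by the authors, for 12 poly(A)-selected, strand-specific libraries (TruSeq). The submitters' processing notes name FastQC, STAR and hg19; the counter, the annotation and any use of strand are not given in the sources used here, and the paper's account of this kit (Prinseq, Salmon, GRCh38) does not name these libraries. Columns were matched to samples by title (0 unmatched). Replicates of a time differed by more than sampling noise (chi-square per degree of freedom at least 3.21).

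Genes averaging 10 or more counts were tested with edgeR 4.0.16 in R 4.3.3 (TMM factors, glmQLFit, glmQLFTest) on all 12 libraries, with time as a number or as 4 groups. The fits were also run on simulated counts with a fixed dispersion and no replicate effect, which do not cover the pairing described below. Half-lives are the negative inverse of TMM-scaled slopes, so they depend on the scaling and on a straight line in time. Single replicates were fitted with the dispersion of all libraries. Percentages of the 0 h level are means and SDs of the ratios of same-numbered libraries. Alternatives used DESeq2 1.42.0 and limma 3.58.1 (log2 of CPM plus 1).

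Same-numbered libraries deviated together from their time means in all 18 pairs (correlation 0.347 to 0.657), so counts are also given with the replicate number as a block where it changes their calls. The pairing comes from the labels' replicate numbers. The p-values rest on the spread between these replicates, and those of the slopes also on departures from a straight line in time.

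Transcripts and coordinates are GENCODE version 44 canonical transcripts on GRCh38, matched by symbol, and no coordinates were taken from the hg19 counts. Members and lists were chosen with earlier results of these data known. Named are all members, the 3 lowest and 2 highest slopes past the threshold in each list, the 5 genes nearest to NFKBIA, and genes said to be chosen after their values were seen; genes named as not past the threshold, as barely detected or for a call that the block or a scaling changes were also chosen after their values were seen.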

Additional observations from a re-analysis of the deposited data

How the results depend on the processing

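Slopes of NFKBIA, TNFAIP3 and REL stayed past the threshold in the same direction under every alternative run that kept the gene, NFKBIA between -1.84 and -1.66 when a replicate was left out. Without 4 h only 3 members fell, NFKBIE, RELA and NFKB1 being no longer past the threshold, and with GAPDH plus ACTB scaling 0 members rose (0 also at 4 h against 0 h). Leaving out a replicate gave 6 falling, 1 rising, 5 to 6 lower at 4 h, 1 higher at 4 h and 0 to 1 lower at 1 h. The lost call at 4 h was NFKB1 without replicate 2 (adjusted p = 0.0738, edgeR). The difference between the medians of inhibitors and subunits was -0.25 with limma, -0.18 without 4 h, 0.15 with at least 100 counts (3 inhibitors against 4 subunits left) and -0.42 to -0.35 when a replicate was left out. With the replicate block 2 members were lower at 1 h, and apart from the calls at 2 h, the steps, the rates and the 4 pathway genes given with it above, the block changed no other call on a member or pathway gene.

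Values near 0 changed sign. The slope of TNIP1 was -0.039 with library totals, -0.14 with GAPDH plus ACTB, -0.0018 without a count filter, -0.0060 with at least 100 counts, -0.039 without 0 h, and -0.0038 to 0.00033 when a replicate was left out. Without 4 h RELB had 0.11 and NFKB2 0.0053. The alternatives for the early minus late rate were chosen after seeing the data. That of NFKBIB was 0.037 with library totals and 0.021 with GAPDH plus ACTB, that of REL 0.038, 0.0017 and 0.015 with totals, DESeq2 size factors and GAPDH plus ACTB. When a replicate was left out they ranged from -0.13 to 0.11 for NFKBIB, -0.12 to 0.15 for REL and -0.17 to 0.042 for TNFAIP3. The causes were not tested. Depth limits RELB, TNFAIP3 and NFKBIE, and NFKBIA after 2 h.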
